A study of Mus musculus with 6 samples.

Results

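The 10 genes described here encode surface proteins by which mesenchymal stem cells (MSCs) and related stromal cells are commonly recognised and sorted. They were taken by name, with earlier results of these data known, and all 10 were found among the 17854 genes measured. They fall into the classical MSC antigens *Thy1* (CD90), *Eng* (CD105) and *Nt5e* (CD73), the receptors and lineage markers *Ly6a* (Sca-1), *Pdgfra* (CD140a), *Pdgfrb* (CD140b) and *Lepr* (CD295), and the adhesion and contact molecules *Cd200*, *Vcam1* (CD106) and *Mcam* (CD146).

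RNA sequencing was performed on bulk Tomato+ cells of the mouse knee, with 3 libraries of MSC-derived cells and 3 libraries of endogenous cells. The donors of both kinds of cell were male C57BL/6 mice that carried *Prrx1-Cre* and *R26tdTomato*, so that Cre expressed from *Prrx1* regulatory sequence, which is active in limb mesenchyme, had permanently switched on the red fluorescent protein tdTomato. For the MSC-derived group (InjectPrrx), Tomato+ cells were sorted from inguinal white fat, injected without culture into the knee of male C57BL/6 mice with surgically induced osteoarthritis and sorted again from the digested cartilage. For the endogenous group (NativePrrx), Tomato+ cells were sorted from the cartilage of age-matched and sex-matched *Prrx1-Cre; R26tdTomato* mice without an injection of cells. The groups therefore differ in the tissue the cells came from, in injection and in the state of the joint at the same time, and these cannot be told apart. The hosts had their own unlabelled joint cells, and the injected fat cells before injection were not analysed here. The sources used here do not say that each library came from a single mouse, so p-values measure only the spread between libraries, which may be technical.

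MSC surface antigens are not restricted to stem cells. Several are enzymes or receptors in their own right, and fibroblasts, pericytes, endothelial cells and blood cells carry some of them as well. Panels for MSCs therefore combine antigens that should be present with blood and endothelial antigens that should be absent. In mice Sca-1 is prominent on stromal cells of fat, whereas the leptin receptor marks stromal cells of bone marrow.

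The expected counts summed to between 22060628 and 24881796 per library, and the level that 3 counts give was 0.121 to 0.136 CPM (counts scaled to library size), which covers counting error only. Endogenous library 1 stood apart from the other endogenous libraries, with 3459 genes at 0 rounded counts against 1338 and 1395. The chi-square statistic per gene was 56.9 and 53.6 between it and the others, compared with 5.31 between endogenous 2 and 3 and 3.84 to 4.25 among the MSC-derived libraries. The labels call the cells chondrocytes. All 10 chondrocyte markers tested were lower in the MSC-derived cells, with summed levels of 2420 to 2490 TPM (transcripts scaled to the same sum in each library) against 26800 to 29700 TPM. Most of the MSC-derived sum was *Prg4*, the marker that changed least, with 1974.7, 2050.91 and 1974.08 TPM in libraries 1, 2 and 3. The median log2 fold change of the 10 markers was -6.03. All 14 macrophage markers were higher in the MSC-derived cells, with summed levels of 26300 to 27000 TPM against 681 to 839 TPM. These markers therefore moved with the comparison that the 10 surface markers are drawn from.

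Compared with the endogenous cells, the MSC-derived Tomato+ cells had lower levels of 7 of the 10 surface markers and a higher level of only *Vcam1*, by edgeR's quasi-likelihood test over 14289 genes with an adjusted p no greater than 0.05. The decreases ran from 2.46-fold for *Thy1* to 64.9-fold for *Lepr*. *Vcam1* was 14.9-fold higher, and *Eng* and *Ly6a* did not pass the test. Among all genes tested 61.6% were called in either direction, 31.3% higher and 30.3% lower, so calls as such are common in these data. The median log2 fold change was -1.86 over the 10 genes and 0.05 over all genes tested. In CPM 8 of the 10 genes had groups without overlap, compared with 72.4% of all genes tested. Without endogenous library 1, 9 of the 10 genes were lower and 1 higher, and the differences ran from -5.92 on the log2 scale for *Lepr* to 3.88 for *Vcam1*. Calls were more common over all 14289 genes as well in that setting. It gave 5563 higher and 5686 lower genes, compared with 4468 and 4333 with all libraries.

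**Figure D1:**
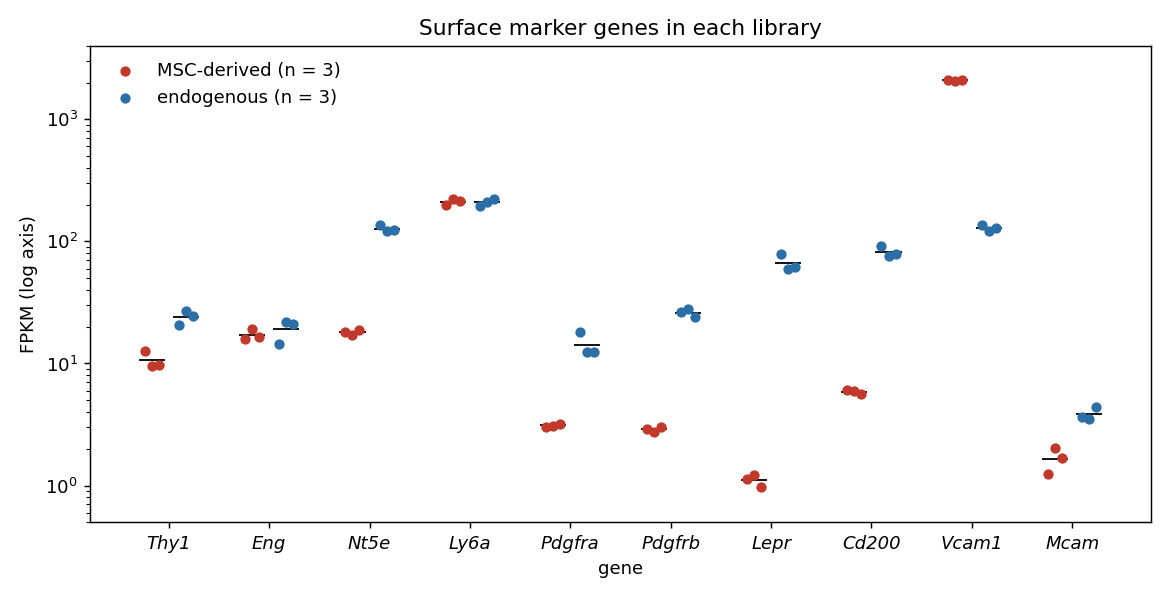
Level of each surface marker gene in FPKM (fragments scaled to transcript length and library size, log axis) in the 3 MSC-derived and 3 endogenous libraries. Each point is a library and each short line a group mean, and the points of *Eng* and *Ly6a* overlap between the groups while those of the other 8 genes do not.

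Of the classical antigens, *Nt5e* showed the largest difference. *Nt5e* encodes ecto-5'-nucleotidase, which turns extracellular AMP into adenosine. It had 18.26, 17.13 and 18.70 FPKM in MSC-derived libraries 1, 2 and 3, and 136.14, 121.38 and 124.46 FPKM in endogenous libraries 1, 2 and 3. The endogenous libraries were all far above the MSC-derived ones, and the ranges were narrow in both groups. *Nt5e* was 7.66-fold lower in the MSC-derived cells, or -2.94 in log2 fold change (standard error 0.08, adjusted p = 1.36e-07).

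*Thy1* encodes a small glycoprotein attached to the membrane by a lipid anchor. Its level was 12.64, 9.58 and 9.79 FPKM in the MSC-derived libraries and 20.76, 27.03 and 24.61 FPKM in the endogenous libraries. The groups did not overlap, although MSC-derived library 1, the highest of its group, and endogenous library 1, the lowest of its group, lay closer together than the means. On the log2 scale the difference was -1.30 (standard error 0.17, adjusted p = 0.000331).

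*Eng* encodes endoglin, a co-receptor for ligands of the TGFβ and BMP family that is also abundant on endothelium. The MSC-derived libraries had 15.88, 19.32 and 16.57 FPKM and the endogenous libraries 14.42, 21.80 and 20.88 FPKM. Endogenous library 1 lay below every MSC-derived library and the other endogenous libraries above them. The log2 fold change of -0.26 had a 95% interval from -0.67 to 0.14 and did not pass the test (standard error 0.17, adjusted p = 0.223). Without endogenous library 1 it was -0.49 and passed (adjusted p = 1.15e-05). In limma on log2(TPM + 1) it was -0.66 and passed (adjusted p = 0.00476), but there the median of all genes also shifted, by -0.40. Reads in the part where *Eng* overlaps its neighbour *Fpgs* could belong to either gene, since the sources used here do not say that strand was counted.

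Among the receptors, *Lepr* showed the largest difference of all 10 genes. *Lepr* encodes the receptor for leptin, the hormone made by fat cells. It had 1.13, 1.23 and 0.97 FPKM in the MSC-derived libraries and 78.74, 59.92 and 62.28 FPKM in the endogenous libraries. The MSC-derived values rest on 127, 126 and 99 counts, well above the floor, and the endogenous values on 8512, 6264 and 6902 counts. *Lepr* was 64.9-fold lower in the MSC-derived cells, or -6.02 in log2 fold change (standard error 0.17, adjusted p = 1.42e-07).

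Both receptors for platelet-derived growth factor, which drive growth and migration of mesenchymal cells, were lower in the MSC-derived cells. *Pdgfra* had 3.02, 3.09 and 3.21 FPKM there and 18.06, 12.38 and 12.36 FPKM in the endogenous libraries, or -2.38 in log2 fold change (standard error 0.17, adjusted p = 1.23e-05). *Pdgfrb* had 2.88, 2.76 and 3.02 FPKM against 26.26, 27.89 and 23.91 FPKM, or -3.28 in log2 fold change (standard error 0.10, adjusted p = 2.29e-07). Neither receptor overlapped between the groups, and endogenous library 1 was the highest for *Pdgfra* but not for *Pdgfrb*. The ratio of *Pdgfra* to *Pdgfrb* in FPKM was 1.05, 1.12 and 1.06 in the MSC-derived libraries and 0.688, 0.444 and 0.517 in the endogenous libraries. Every MSC-derived ratio was above every endogenous ratio. The mean log2 ratio differed by 0.99 between the groups, with an exact two-sided permutation p of 0.1, which is the smallest that 3 libraries against 3 can give.

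*Ly6a* encodes Sca-1, a lipid-anchored protein of the Ly6 family that marks stromal and blood stem and progenitor cells in mice. It had 200.34, 220.88 and 215.46 FPKM in the MSC-derived libraries and 194.91, 210.12 and 224.47 FPKM in the endogenous libraries. These were high levels in both groups, and the ranges overlapped almost completely. The log2 fold change was -0.11, with a 95% interval from -0.30 to 0.09 (standard error 0.08, adjusted p = 0.297). Its sign depended on scaling, with 0.01 when only library size was used and -0.54 in limma on log2(TPM + 1), where it passed (adjusted p = 0.000269). The median of all genes also shifted in these settings, by 0.12 and -0.40. Without endogenous library 1 the log2 fold change of *Ly6a* was -0.21 and passed the test (adjusted p = 0.00151).

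The value of *Ly6a* is also less certain than the others because its sequence is shared. Of the 1297 stretches of 50 bases in its transcripts, 246 (19%) also occur in transcripts of other genes. Sharing was greatest with *Ly6c1*, *Ly6i*, *I830127L07Rik* and *Ly6c2*, and the authors' counting could divide reads between these and *Ly6a*. The share was at most 4.93% for the other 9 genes. *Ly6a2* had 304.34, 305.80 and 297.07 FPKM in the MSC-derived libraries and 19.16, 19.07 and 19.00 FPKM in the endogenous libraries, so this close relative was higher in every MSC-derived library than in any endogenous one. Of a list of 11 other genes of the Ly6 family, which did not include *Ly6a2*, 8 were tested, of which 5 were higher, none was lower (0 genes) and 3 did not pass, with a median log2 fold change of 2.44. The largest changes in that list were those of *Ly6g*, with a log2 fold change of 4.12, and *Ly6c2*, with 3.60. *Ly6c1* had -0.33 (adjusted p = 0.130), *Ly6k* 0.55 (adjusted p = 0.446) and *Ly6g6d* 0.84 (adjusted p = 0.531).

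*Vcam1*, which encodes the adhesion molecule that integrin α4β1 binds, was the only surface marker that rose. The MSC-derived libraries had 2092.83, 2078.32 and 2088.68 FPKM and the endogenous libraries 136.19, 122.02 and 129.15 FPKM. The MSC-derived libraries differed by less than the endogenous ones, with a coefficient of variation of 0.358% against 5.49%. On the log2 scale the difference was 3.90 (standard error 0.06, adjusted p = 2.98e-08). By mean FPKM it ranked 40 of 17854 genes in the MSC-derived cells and 590 in the endogenous cells, so it was abundant in both.

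Besides MSCs and activated endothelium, some tissue macrophages carry VCAM1. The macrophage transcription factor gene *Spic* had a log2 fold change of 9.73 and the complement gene *C1qa* one of 9.53 in the same comparison, and *Mertk*, which changed least in that list, one of 3.51. Endogenous library 1 had the lowest summed level of the 14 markers, 681 TPM, with *Spic* and *Siglec1* at 0 counts, *Mertk* at 795 counts and *Lyz2* highest at 6505 counts, and it had 10294 counts of *Vcam1*. The part of these markers in the level of *Vcam1* was not tested in either group.

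*Cd200* encodes a surface glycoprotein that restrains myeloid cells through its receptor. Its level was 6.10, 5.97 and 5.59 FPKM in the MSC-derived libraries and 91.38, 76.19 and 78.90 FPKM in the endogenous libraries. All endogenous libraries were far above the MSC-derived ones. *Cd200* was 15.1-fold lower in the MSC-derived cells, or -3.92 in log2 fold change (standard error 0.10, adjusted p = 1.32e-07).

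*Mcam* encodes a cell adhesion molecule of pericytes and endothelium, and had the lowest endogenous level of the 10 genes. It had 1.25, 2.02 and 1.69 FPKM in the MSC-derived libraries, from 81, 126 and 103 counts, and 3.65, 3.54 and 4.44 FPKM in the endogenous libraries. The groups did not overlap, but the spread of 23.4% among the MSC-derived libraries was the widest of the 10 genes in that group. On the log2 scale the difference was -1.34 (standard error 0.25, adjusted p = 0.00277).

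In these bulk libraries, fewer cells that carry a marker cannot be told apart from less of its RNA in each cell.

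**Figure D2:**
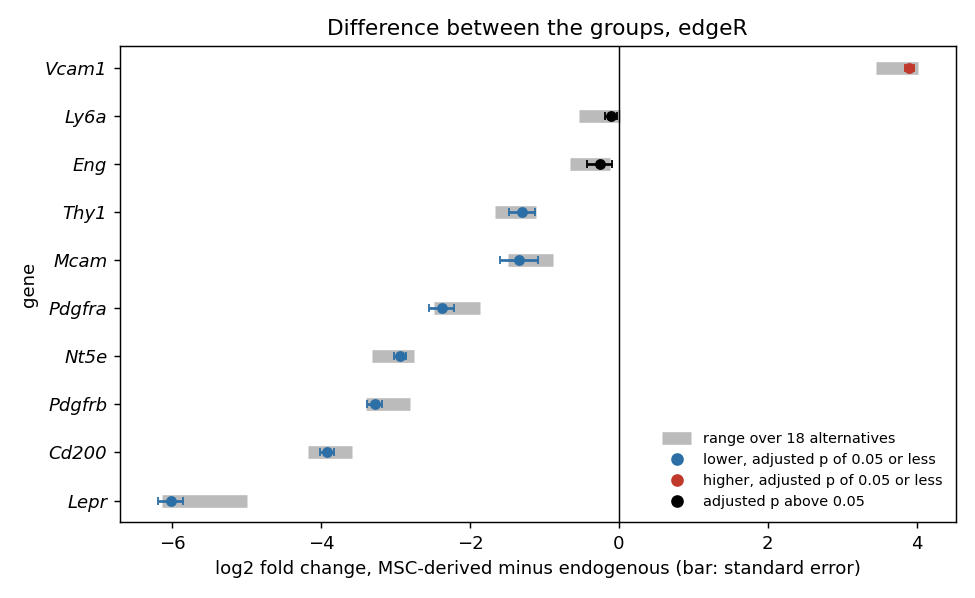
Log2 fold change of each surface marker gene, MSC-derived minus endogenous, with points and bars for edgeR's estimate and its standard error and grey bands for the range over 18 other ways of processing. Only *Vcam1* lies to the right, the band of *Ly6a* reaches across 0 (-0.54 to 0.02), and the other 8 bands stay to the left.

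Promoter sequences are shown for *Lepr* and *Cd200*, which had the largest decreases of the 10 genes, and for *Nt5e*, which had the largest decrease of the classical antigens. RefSeq (GRCm38.p6) gave entries for 6 of the 10 genes, and none for *Thy1*, *Ly6a*, *Pdgfrb* and *Vcam1* in the table used. Each sequence runs 5' to 3' on the strand of its gene, from 250 bases before the annotated start to 50 bases after it. *Lepr* has a pair of annotated starts, at chr4:101717157-101717456 and chr4:101717656-101717955 on the plus strand. *Cd200* is at chr16:45409004-45409303 on the minus strand and *Nt5e* at chr9:88327359-88327658 on the plus strand. Capitals mark matches, on either strand and with overlaps allowed, to the TATA box letters TATAAA, the CCAAT box letters CCAAT or the GC box letters GGGCGG.
*Lepr*, upstream start: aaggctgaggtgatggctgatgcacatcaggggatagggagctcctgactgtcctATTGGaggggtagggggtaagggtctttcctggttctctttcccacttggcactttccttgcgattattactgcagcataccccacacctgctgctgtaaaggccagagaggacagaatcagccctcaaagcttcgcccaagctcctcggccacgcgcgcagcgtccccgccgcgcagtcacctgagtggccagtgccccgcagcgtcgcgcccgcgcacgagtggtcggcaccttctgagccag
*Lepr*, downstream start: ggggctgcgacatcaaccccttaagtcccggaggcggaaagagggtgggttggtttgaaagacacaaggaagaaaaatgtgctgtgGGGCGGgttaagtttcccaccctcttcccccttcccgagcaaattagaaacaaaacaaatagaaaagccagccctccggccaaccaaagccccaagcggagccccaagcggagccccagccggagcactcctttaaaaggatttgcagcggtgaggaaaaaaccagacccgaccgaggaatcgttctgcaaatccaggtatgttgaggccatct
*Cd200*: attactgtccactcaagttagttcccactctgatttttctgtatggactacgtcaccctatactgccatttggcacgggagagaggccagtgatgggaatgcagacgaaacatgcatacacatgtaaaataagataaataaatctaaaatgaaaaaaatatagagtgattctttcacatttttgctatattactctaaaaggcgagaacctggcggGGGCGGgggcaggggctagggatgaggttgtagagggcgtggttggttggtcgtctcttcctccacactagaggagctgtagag
*Nt5e*: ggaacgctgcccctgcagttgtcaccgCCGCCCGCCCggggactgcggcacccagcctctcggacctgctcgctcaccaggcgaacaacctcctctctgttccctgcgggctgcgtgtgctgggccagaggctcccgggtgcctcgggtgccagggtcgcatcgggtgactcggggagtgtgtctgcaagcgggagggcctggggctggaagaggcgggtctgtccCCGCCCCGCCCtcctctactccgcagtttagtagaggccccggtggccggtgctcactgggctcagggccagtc
The upstream *Lepr* window held 1 CCAAT match, the downstream *Lepr* window and the *Cd200* window 1 GC box match each, and the *Nt5e* window 4 GC box matches. TATAAA had 0 matches in these windows. Among 32851 RefSeq promoters of the same length 13.6% held TATAAA, 37.4% CCAAT and 35.7% the GC box, so single matches are common, and these letters say nothing here about a factor's binding.

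By level per transcript length, the order of the genes differed between the groups. In the MSC-derived cells *Vcam1* was highest in FPKM, followed by *Ly6a*, *Nt5e*, *Eng*, *Thy1*, *Cd200*, *Pdgfra*, *Pdgfrb*, *Mcam* and *Lepr*. The ranges of neighbours overlapped only for *Nt5e* with *Eng* and for *Pdgfra* with *Pdgfrb*. In the endogenous cells *Ly6a* was highest, followed by *Vcam1*, *Nt5e*, *Cd200*, *Lepr*, *Pdgfrb*, *Thy1*, *Eng*, *Pdgfra* and *Mcam*. There, the ranges overlapped for *Vcam1* with *Nt5e*, for *Cd200* with *Lepr*, and for each neighbouring pair from *Pdgfrb* to *Pdgfra*. By rank among 17854 genes, *Lepr* went from 1121 in the endogenous cells to 11314 in the MSC-derived cells, and *Cd200* from 925 to 7424.

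As shares of the summed TPM of the 10 genes, *Vcam1* made up 88.9%, 88.1% and 88.4% in the MSC-derived libraries and 18.9%, 17.9% and 18.3% in the endogenous libraries. *Ly6a* made up 8.51% to 9.36% in the MSC-derived libraries and 27.1% to 31.8% in the endogenous libraries. In the endogenous libraries *Nt5e* held 17.6% to 18.9%, *Cd200* 11.2% to 12.7% and *Lepr* 8.78% to 10.9%, whereas in the MSC-derived libraries they held 0.726% to 0.791%, 0.236% to 0.259% and 0.0410% to 0.0521%. The endogenous profile was thus spread over several markers and the MSC-derived profile was mostly *Vcam1*. The summed level of the 9 genes other than *Vcam1* was 323.2, 348.7 and 338.0 TPM in the MSC-derived libraries and 1158, 978.4 and 1005 TPM in the endogenous libraries. Levels per length need care between groups, because the FPKM of all genes added up to 808701 to 813572 per MSC-derived library and to 504768 to 573603 per endogenous library.

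**Figure D3:**
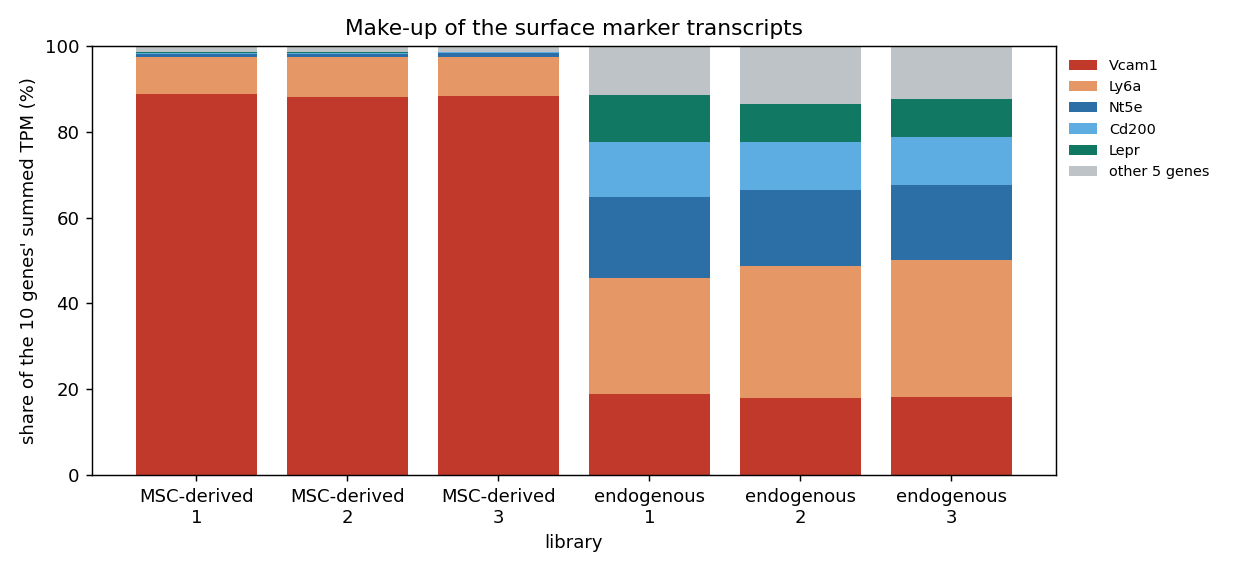
Share of the 10 genes' summed TPM (%, from 0 to 100) taken by each of the 5 most prominent genes and by the other 5 together, in each library. *Vcam1* fills 88.1% to 88.9% of the MSC-derived bars and 17.9% to 18.9% of the endogenous bars, where *Ly6a*, *Nt5e*, *Cd200* and *Lepr* are also visible.

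Among the endogenous libraries, endogenous 1 differed from the others by gene and not in 1 direction. Its FPKM relative to the mean of endogenous 2 and 3 was 1.46 for *Pdgfra*, 1.29 for *Lepr*, 1.18 for *Cd200* and 1.11 for *Nt5e*. It was 0.676 for *Eng*, 0.804 for *Thy1*, 0.897 for *Ly6a* and 0.915 for *Mcam*, and close to 1 for *Pdgfrb* (1.01) and *Vcam1* (1.08). The median coefficient of variation of the surface markers was 4.76% in the MSC-derived and 11.3% in the endogenous libraries, against 7.75% and 19.9% over all genes tested.

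The ligands and partners of the surface markers did not move in 1 direction. Of the 27 tested, 15 were higher, 9 lower and 3 did not pass, with a median log2 fold change of 0.64. Among the ligands of the PDGF receptors, *Pdgfc* rose in the MSC-derived cells (log2 fold change 1.06), and *Pdgfa* and *Pdgfd* fell, with -1.34 and -2.58. *Pdgfb* had 1047, 964 and 914 counts in the MSC-derived libraries and 0, 17 and 34 counts in the endogenous libraries (adjusted p = 0.000216). The group with low receptor transcripts thus had the higher level of *Pdgfb* and *Pdgfc* and the lower level of *Pdgfa* and *Pdgfd*. Summed over these 4 ligands, the level was 75.4 to 83 TPM in the MSC-derived and 90.2 to 117 TPM in the endogenous libraries. *Lep*, which encodes leptin, had 11 counts in endogenous library 3 and 0 in every other library and was not tested.

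*Cd200r1*, the myeloid receptor for CD200, moved opposite to *Cd200*, with 32.14, 34.59 and 35.88 FPKM in the MSC-derived libraries and 1.81, 0.79 and 1.15 FPKM in the endogenous libraries (log2 fold change 4.65, standard error 0.28, adjusted p = 4.9e-06). *Cd200r4* was also higher, with 282 to 333 counts against 0 to 19 (adjusted p = 0.00158), while *Cd200r3* had a log2 fold change of 0.44 (adjusted p = 0.486) and *Cd200r2* had at most 3 counts and was not tested. Receptor genes of this family are expressed by myeloid cells, and the leukocyte markers had summed levels of 3270 to 3280 TPM in the MSC-derived libraries against 190 to 266 TPM. Their part in the result was not tested.

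Of the integrin subunits that bind VCAM1, *Itga4*, *Itgb7* and *Itga9* rose with log2 fold changes of 2.53, 2.26 and 1.94, and *Itgb1*, the common β1 subunit, fell with -1.08. In the endoglin receptor complex, the type I receptor gene *Acvrl1* (ALK1) rose with 2.37 and *Tgfb3* fell with -2.79, and the smallest change was that of *Tgfbr1*, with 0.33 (adjusted p = 0.0229). Of 6 tested genes of that complex 4 were higher and 2 lower. Of the partners of THY1, *Sdc4* (syndecan-4) fell by 3.31 and *Itgav* by 0.61 on the log2 scale, and *Itgb3* had -0.23 (adjusted p = 0.478). *Lama4*, which encodes the laminin α4 chain that MCAM binds, fell by 1.75.

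For the adenosine pathway around *Nt5e*, the gene of the enzyme that acts before it was higher in the MSC-derived cells. *Entpd1* (CD39), which makes AMP from ATP, had 75.28, 74.13 and 79.18 FPKM in the MSC-derived libraries and 5.98, 3.49 and 4.59 FPKM in the endogenous libraries (log2 fold change 3.90, standard error 0.19, adjusted p = 2.09e-06). *Nt5e* and *Entpd1* thus moved in opposite directions. *Ada*, which removes adenosine, rose with a log2 fold change of 2.51, and the receptor gene *Adora2b* with 2.26 (adjusted p = 0.0227). *Adora1* fell by 4.0 on the log2 scale, *Adora3* had 22 to 35 counts against 0 to 3 (adjusted p = 0.00566), and *Adora2a* had -0.83 (adjusted p = 0.0565).

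**Figure D4:**
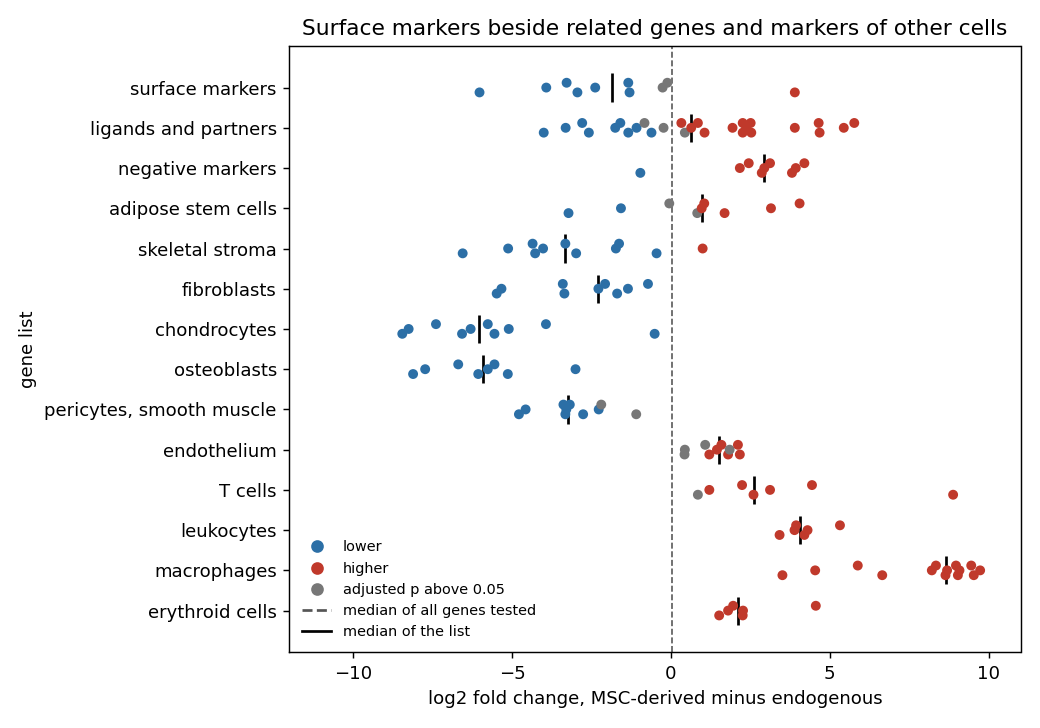
Log2 fold changes, MSC-derived minus endogenous, of the surface markers, their ligands and partners, other stem cell markers and markers of other cell types, with a point per tested gene, a solid tick at each list's median and a dashed line at the median of all genes tested (0.05). The surface markers have a median of -1.86, between chondrocyte markers at -6.03 and macrophage markers at 8.66.

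The study stained Tomato+ cells of fat and dermis, not the joint cells sequenced here, for surface proteins by flow cytometry. The antigens were CD29, CD44, CD45 and CD271 besides several of the surface markers above. It reported Sca-1, CD29 and CD44 but not CD45, CD105 or CD106, and CD271 could not be detected. CD146, the product of *Mcam*, was found on a small part of the cells only. In the joint cells, the RNA of the genes for CD29, CD44, CD45 and CD271 split as well. *Cd44*, which encodes the hyaluronan receptor, rose in the MSC-derived cells, by 0.86 on the log2 scale (adjusted p = 4.4e-05), as did *Ptprc* (CD45), by 4.20. *Itgb1* (CD29) was lower, and *Ngfr* (CD271) had 1, 5 and 2 counts in the MSC-derived libraries and 92, 21 and 27 in the endogenous libraries (adjusted p = 0.00568).

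Of 9 antigens that MSC panels use as signs of blood or endothelial cells, 8 were higher in the MSC-derived cells and 1 was lower, with a median log2 fold change of 2.94. The largest changes in that list were those of *Ptprc* and of *H2-Aa*, an MHC class II gene, with 4.20 and 3.93. *Cd34*, which adipose stromal cells carry as well as blood progenitors, was the exception, with -0.96 (adjusted p = 0.00167).

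Markers of adipose stem and progenitor cells were mixed, with 5 of 9 higher, 2 lower and 2 not past the test. *Pparg*, the regulator of fat cell formation, had a log2 fold change of 4.05, and *Col15a1*, which encodes a collagen of basement membranes, -3.22. *Icam1* changed least, with -0.05 (adjusted p = 0.648), and *Dpp4* had 0.83 (adjusted p = 0.438). *Pi16*, *Cd55* and *Anxa3* were also higher, with 1.69, 1.05 and 0.97, and *Sema3c* was lower, with -1.57. Both *Pparg* and *Fabp4*, which had 3.15, are also expressed by macrophages. Their part in the result was not tested.

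Other genes of skeletal stroma moved like most of the surface markers, with 10 of 11 lower and 1 higher and a median log2 fold change of -3.32. *Grem1*, a BMP antagonist, had -6.55 and *Cxcl12*, the chemokine of marrow stroma, -5.12, with 88.81, 85.93 and 89.12 FPKM against 2530.60, 2500.84 and 2482.15 FPKM. *Anpep* (CD13) changed least, with -0.45 (adjusted p = 0.047), and *Alcam* (CD166) was the gene that rose, with 1.00 (adjusted p = 0.00131).

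Cell types that share the surface markers differed between the groups too. Of 10 pericyte and smooth muscle markers, 8 were lower and 2 did not pass, with summed levels of 43.7 to 49.6 TPM against 580 to 669 TPM. *Myh11* had a log2 fold change of -4.78 and *Notch3* -4.57, whereas *Kcnj8* had -1.09 (adjusted p = 0.0673) and *Higd1b* -2.19 (adjusted p = 0.159). *Pdgfrb* and *Mcam*, which pericytes carry, were lower in the same libraries. All 9 fibroblast markers were lower, from *Col1a1* with -5.48 and *Col1a2* with -5.33 to *Fn1* with -0.72, as were all 8 osteoblast markers, from *Dmp1* with -8.11 and *Bglap* with -7.73 to *Runx2* with -3.00. The fibroblast markers had summed levels of 2600 to 2630 TPM against 37300 to 47300 TPM. The osteoblast markers had 398 to 422 TPM against 37200 to 64300 TPM. Both endogenous sums were above that of the chondrocyte markers, which was 26800 to 29700 TPM. The lists differ in the number and kind of their genes, so these sums do not rank the cell types. Single genes held much of them. *Bglap* had 22811.6, 43654.6 and 39571.8 TPM in endogenous libraries 1, 2 and 3, and *Col1a1* had 23514.2, 19584.2 and 18039.7 TPM. Among the chondrocyte markers *Cnmd* had -8.45, *Col9a1* -8.25 and *Prg4* -0.51. The part of these cell types in the lower surface marker levels was not tested.

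Of 10 endothelial markers 6 were higher in the MSC-derived cells and 4 did not pass, with summed levels of 55.3 to 59.5 TPM against 18.8 to 36.9 TPM. *Pecam1* (CD31), which blood cells also carry, and *Egfl7* had log2 fold changes of 2.17 and 2.11. *Tek* (0.44, adjusted p = 0.605), *Emcn* (1.85, adjusted p = 0.152), *Esam* (0.43, adjusted p = 0.161) and *Cldn5* (1.08, adjusted p = 0.415) did not pass, and *Emcn* and *Cldn5* were at 0 counts in endogenous library 1. Endothelium also expresses *Eng*, which did not pass the test, and *Mcam*, which was lower. The part of endothelial cells in their levels was not tested.

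Markers of blood cells were higher in the MSC-derived libraries. All 6 leukocyte markers passed, from *Coro1a* with a log2 fold change of 3.42 to *Laptm5* with 5.32, and *Cd53*, *Rac2* and *Cd52* had 4.3, 3.94 and 3.89. The erythroid markers *Epor*, *Hba-a1*, *Hbb-bs*, *Alas2* and *Slc4a1* passed as well, with 4.56, 2.27, 2.26, 1.96 and 1.80. Of 7 T cell markers 6 were higher, among them *Cd4* with 8.88, which some macrophages express, and *Cd3g* with 4.44. *Lck* had 0.85 (adjusted p = 0.103), and 2 or 3 of the T cell markers were called when any 1 MSC-derived library or endogenous library 2 was left out.

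The genes whose pattern over the 6 libraries lay closest to a surface marker were found by the Euclidean distance of centred log2 CPM. Genes with a like log2 fold change lie close by this measure, because most of each pattern is the difference between the groups. The nearest genes to *Nt5e*, which had -2.94, had -2.98, -2.97 and -2.97. Closeness here therefore does not show that genes are expressed in the same cells. For *Vcam1* the closest genes were *Fcnb* at a distance of 0.09, *Ly6a2* at 0.12 and *Pld3* at 0.15. For *Lepr* they were *Col10a1* at 0.42, *Pdk4* at 0.44 and *Alpl* at 0.44, farther away than the nearest genes of the other 9 surface markers. *Nt5e* lay nearest to *Synm* at 0.09, *Phlda1* at 0.10 and *Fbln5* at 0.12, and *Cd200* to *Chst11* at 0.13, *Lif* at 0.17 and *Serpine2* at 0.21. The nearest genes to *Pdgfrb* were *Yap1* at 0.20, *Col5a1* at 0.20 and *Col6a2* at 0.21, and to *Pdgfra* *Yod1* at 0.19, *Cdc42ep3* at 0.21 and *Tanc1* at 0.21. *Thy1* was closest to *Lysmd2* at 0.20, *Furin* at 0.22 and *Slc35a2* at 0.23, and *Mcam* to *Polr3d* at 0.29, *Zfp395* at 0.30 and *Poglut2* at 0.37. The genes that did not pass lay near others of little change, *Eng* near *Tmem138* at 0.14, *Polr2h* at 0.16 and *Cd248* at 0.16, and *Ly6a* near *Hp1bp3*, *Cisd1* and *Pafah1b2*, each at 0.09.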

How the data were processed

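Bulk Tomato+ cells were sequenced in 3 MSC-derived and 3 endogenous libraries, grouped by sample title. The authors filtered the reads and, per the labels' processing notes, used Bowtie2 2.2.5, RSEM 1.2.12 and mm9, so no gene coordinates are given apart from RefSeq's promoters. The methods of the paper name other versions of Bowtie2 and RSEM, and which were used is not known here. For every library the authors deposited expected counts from RSEM without normalization, and also FPKM and TPM. The 18 columns of single samples were mapped by name, and 0 columns stayed unmapped. Left out were 8 columns holding group averages and the scaled signal per gene that the authors deposited as normalized counts. Expected counts were rounded, which changed 20.6% of values, and tested by quasi-likelihood in edgeR 4.0.16 (R 4.3.3) after TMM scaling and filterByExpr, over 14289 genes, with Benjamini-Hochberg adjustment and a threshold of 0.05. This test was tried on simulated counts. Alternatives used DESeq2 1.42.0, limma 3.58.1, other scalings, filters and left-out libraries. Named genes are the 10 members and every gene of lists of up to 6 genes. In longer lists the 2 largest, the smallest and the uncalled changes are named. *Fabp4*, *Pi16*, *Cd55*, *Anxa3*, *Sema3c*, *Ly6a2*, *Siglec1* and *Lyz2* were added after their values were seen. For likeness, genes needed an average log2 CPM of at least 3. Members and lists were chosen with earlier results of these data known. An erythroid marker is not reported here. *Gdf2*, *Trac*, *Trbc2* and tdTomato were not analysed here. Figures used matplotlib 3.10.9.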

Additional observations from a re-analysis of the deposited data

How the results depend on the processing

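Of 180 values of the 10 surface markers under 18 alternatives, 172 kept their direction and their side of the threshold. *Eng* came to -0.66 (adjusted p = 0.00476) in limma on log2(TPM + 1), chosen after the data were seen, and ran from -0.49 to -0.19 when each library was left out in turn. *Ly6a* reversed to 0.01 (adjusted p = 0.913) with library size only and to 0.02 in limma on log2(FPKM + 1) and on log2(FPKM + 0.1) (adjusted p = 0.858 and 0.856), came to -0.54 (adjusted p = 0.000269) in limma on log2(TPM + 1), and ran from -0.21 to -0.06 over left-out libraries. *Mcam*, at -1.34, did not pass a threshold of 0.001. That threshold left 2134 higher and 2380 lower genes of all tested, 1 lower gene of *Itgb1*, *Cd44*, *Ngfr*, *Ptprc* and *Pecam1*, 0 lower negative markers, 0 higher skeletal stroma markers, 1 higher endothelial and 1 higher T cell marker. A filter of at least 1 CPM also left 1 lower gene of those 5. T cell markers called higher ran from 2 to 7 over left-out libraries. Lower surface markers numbered 7 to 9 over left-out libraries, with 9 without endogenous library 1. They numbered 6 at the threshold of 0.001 and 9 in limma on log2(TPM + 1). Over all genes 3672 to 5563 were higher and 3761 to 5686 lower when each library was left out in turn.

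Calls were 50.8% higher genes in edgeR and 34.4% in limma on log2(TPM + 1), 3124 higher and 5962 lower, where the median of all genes shifted by -0.40. It shifted by 0.12 with library size only and by 0.13 and 0.14 in limma on FPKM. The replicate number as a block gave 4103 higher and 3920 lower genes, and 1 higher and 7 lower surface markers. The correlations of same-numbered deviations were 0.01, 0 and 0.02. They gave no sign that the numbers pair the libraries, but with 3 libraries per group they cannot exclude it. The ratio of *Pdgfra* to *Pdgfrb* differed by 0.85 to 1.17 on the log2 scale over left-out libraries. The causes were not tested.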
